A study of Mus musculus with 3 samples.

Results

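H3K4me3 was examined at 7 genes that mark the glial cells of the brain: Gfap, Slc1a2 and Sox9 for astrocytes, Sox10, Olig1 and Olig2 for the oligodendrocyte lineage, and Csf1r for microglia. The members were the peaks that overlapped 1 of 6 windows of the mouse genome (build mm9) named after these genes, with Olig1 and Olig2 sharing a window. No mm9 annotation was used, so a peak is described by its window and was not assigned to a gene's promoter, exons or introns. The windows held 10 of the 19631 peaks of the mutant library and 10 of the 18515 peaks of the wild-type library. Joined where they overlapped, these peaks formed 11 of the 20211 marked regions of the data set. The Gfap window ran from 102.74 to 102.77 Mb and the Sox9 window from 112.63 to 112.66 Mb, both on chromosome 11. The Slc1a2 window ran from 102.49 to 102.64 Mb on chromosome 2, the Sox10 window from 78.975 to 79.005 Mb on chromosome 15, the shared Olig window from 91.215 to 91.28 Mb on chromosome 16, and the Csf1r window from 61.255 to 61.30 Mb on chromosome 18.

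The mutant library (HD) came from hippocampus of N171-82Q mice, a Huntington's disease model in which the mouse prion protein promoter drives a transgene for the N-terminal part of mutant huntingtin. The wild-type library (WT) came from littermates without the transgene. Both used adult males of a C57/DBA F1 hybrid background, and each precipitation pooled the hippocampi of 3 mice. Each genotype had 1 library, so the differences below have no replicate check and no test was made. The files hold peak positions and scores and no read counts, so sequencing depth is unknown.

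Trimethylation of lysine 4 on histone H3 (H3K4me3) marks promoters that are active or poised, and at many genes it covers the CpG-rich stretch around the start of transcription. Whole hippocampus mixes neurons with astrocytes, cells of the oligodendrocyte lineage and microglia, and a peak in such tissue is the sum over all of them. Fewer cells of a type and less mark per cell therefore cannot be told apart in these libraries. Gfap encodes the intermediate filament by which reactive astrocytes are recognised, Slc1a2 the astrocytic transporter GLT-1 that clears synaptic glutamate, and Sox9 a transcription factor of astrocytes and neural progenitors. Olig1, Olig2 and Sox10 are transcription factors that establish and maintain the oligodendrocyte lineage, and Csf1r is the receptor for CSF1 and IL-34 on which microglial survival depends.

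Promoter sequences are shown for Olig2 and Gfap, an oligodendrocyte and an astrocyte gene that stand far apart in CpG content. They come from RefSeq on build GRCm38.p6 and span 250 bases before to 50 bases after the annotated start. The build differs from that of the peaks, so the sequences were not placed inside any peak. CG dinucleotides, which read the same on both strands, are in capitals. The Olig2 stretch lies at chr16:91225300-91225599 on the plus strand, and the Gfap stretch at chr11:102897151-102897450 on the minus strand.
Olig2: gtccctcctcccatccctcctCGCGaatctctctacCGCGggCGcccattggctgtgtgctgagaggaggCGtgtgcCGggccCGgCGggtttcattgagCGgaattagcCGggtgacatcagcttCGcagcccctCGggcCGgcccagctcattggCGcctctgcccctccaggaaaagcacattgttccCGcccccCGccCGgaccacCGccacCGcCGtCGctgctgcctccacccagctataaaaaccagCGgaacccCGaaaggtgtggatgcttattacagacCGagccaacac
Gfap: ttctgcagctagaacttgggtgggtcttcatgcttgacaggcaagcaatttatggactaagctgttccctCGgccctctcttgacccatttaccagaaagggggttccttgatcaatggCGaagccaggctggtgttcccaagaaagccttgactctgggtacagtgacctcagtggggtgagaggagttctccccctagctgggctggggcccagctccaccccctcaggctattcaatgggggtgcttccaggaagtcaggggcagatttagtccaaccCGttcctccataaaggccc
The Olig2 promoter holds 25 CG dinucleotides and the Gfap promoter 3, against a median of 7 over the 32851 promoters of the table. Of all these promoters, 18.4% hold as many as Olig2 or more, and 76.7% hold as many as Gfap or more. The observed over expected ratio of CG is 0.815 for Olig2 and 0.129 for Gfap. The table held entries for 3 of the 7 genes, and none for Sox9, Sox10, Olig1 and Csf1r. Its entry for Slc1a2 begins inside the gene and is not shown.

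Of the 6 windows, 5 carried H3K4me3 in the HD library and the same 5 in the WT library. The Csf1r window had no peak in either. In the 5 marked windows HD peaks covered 31072 bp and WT peaks 33056 bp. The whole lists differed in the same direction, with 43.768 Mb covered in HD and 45.752 Mb in WT. HD covered less than WT in 3 of the marked windows, Slc1a2, Sox9 and the Olig window, and more in 2, Gfap and Sox10. Of the 11 regions, 9 had a peak of each library, 1 had a peak in HD alone and 1 in WT alone. A peak overlapping the other list by at least 1 bp had a counterpart there. In the whole HD list 9.30% of peaks lacked one, and in the whole WT list 5.50%.

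**Figure D1:**
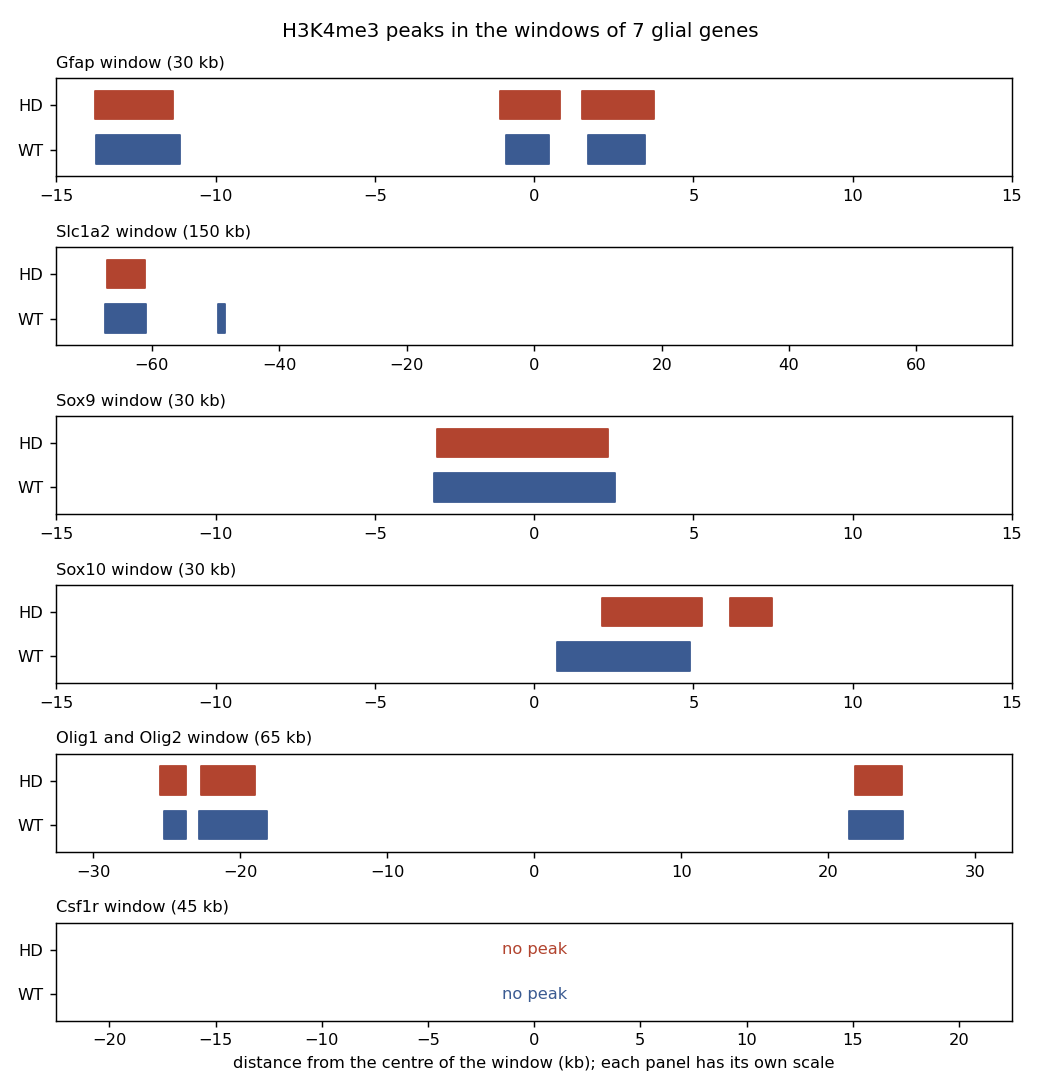
Peaks of the HD library (upper row) and the WT library (lower row) in each window, drawn against the distance from the window's centre in kb, with a separate scale for each panel. Marks at Gfap, Slc1a2, Sox9 and the Olig genes sit at matching places apart from a small WT peak in the Slc1a2 window, the HD marks at Sox10 lie further right than the WT mark, and the Csf1r window is empty.

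Slc1a2 and Sox9, both astrocytic, had the widest marks of the set, and those marks were nearly the same in the libraries. The Slc1a2 peak covered 6101 bp in HD, from 102497890 to 102503990, and 6487 bp in WT, from 102497607 to 102504093. It was wider than 99.1% of HD peaks and 98.8% of WT peaks. The HD peak lay wholly inside the WT peak, with its left edge 283 bp and its right edge 103 bp inward, where left means the lower coordinate. The log2 ratio of covered length, HD over WT, was -0.09, a length 5.95% smaller in HD.

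The Sox9 peak covered 5355 bp in HD, from 112641962 to 112647316, and 5654 bp in WT, from 112641869 to 112647522. Here too the HD peak lay wholly inside the WT peak, by 93 bp at the left end and 206 bp at the right end. The log2 ratio was -0.08. Among all 17367 regions shared by the libraries the median ratio was -0.09 (quartiles -0.22 and 0.03), so both peaks sat near the middle of the distribution. Of the bases covered by either library, 94.05% at Slc1a2 and 94.7% at Sox9 were covered by both, against a median of 86.9% over all shared regions. That median takes in all widths, and for a given shift in bp the share is higher in a wider peak. Among regions with 1 peak of each library, 14.7% had a larger inward shift of the left edge than Slc1a2, and 43.2% than Sox9. For the right edge these shares were 41.9% and 23.6%.

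The authors' score ranks a peak within its own list and cannot be compared between lists. The Slc1a2 peak scored 2482.31 in the HD list, above 78.3% of that list, and 1656.21 in the WT list, above 77.5% of that one. Sox9 scored 3009.77 in the HD list and 1651.44 in the WT list, above 86.3% and 77.4% of the peaks there. Both peaks thus belonged to the strongly marked part of each list.

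The Slc1a2 window also held a small WT peak of 1082 bp at 102515369 to 102516450, with no HD peak over it. It lay 11275 bp beyond the wide peak and scored 59.41, near the lowest score of either list, 50.01. In the lowest decile of WT scores, to which it belongs, 39.96% of WT peaks had no HD counterpart. It was the 1 WT peak of the 10 in these windows without a counterpart. With it included, the Slc1a2 window had 6101 bp covered in HD and 7569 bp in WT.

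The Gfap window showed a mixed picture, with a strong mark at its low-coordinate end and a pair of weak marks near its middle. The strong peak covered 2460 bp in HD, from 102741203 to 102743662, and 2664 bp in WT, from 102741230 to 102743893, a log2 ratio of -0.11. It scored 1956.24 in the HD list and 1454.77 in the WT list. Which gene this peak belongs to was not determined. In the GRCm38.p6 gene table Fam187a is the nearest protein-coding gene on the low-coordinate side of Gfap and Kif18b on the high-coordinate side.

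Both weak Gfap peaks were longer in HD and reached past the WT peak at either end. The middle peak covered 1872 bp in HD, from 102753941 to 102755812, and 1379 bp in WT, from 102754102 to 102755480. Its HD edges lay 161 bp outside at the left end and 332 bp outside at the right end. The log2 ratio of 0.44 was above those of 98.1% of shared regions. The high-coordinate peak covered 2247 bp in HD, from 102756509 to 102758755, and 1789 bp in WT, from 102756688 to 102758476. Its HD edges lay 179 and 279 bp outside, and its ratio of 0.33 was above those of 96.5% of shared regions.

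In the WT list these Gfap peaks were among the weakest. The middle peak scored 180.58 in the HD list, above 23.65% of it, and 56.78 in the WT list, above 3.07%. The high-coordinate peak scored 307.93 in the HD list, above 30.4% of it, and 87.73 in the WT list, above 12.4%. In the lowest decile of WT score among shared regions 40.8% were longer in HD, against 22.6% in the highest decile. By HD score, 40.8% of regions in the second decile, which holds the middle Gfap peak, and 39.3% in the third, which holds the high-coordinate one, were longer in HD. The lowest HD decile had 29.0% and the highest 24.35%. Within that lowest WT decile the middle Gfap ratio was above 92.9% of regions and the high-coordinate ratio above 88.1%. Within their deciles of HD score they were above 93.7% and 92.8%.

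**Figure D2:**
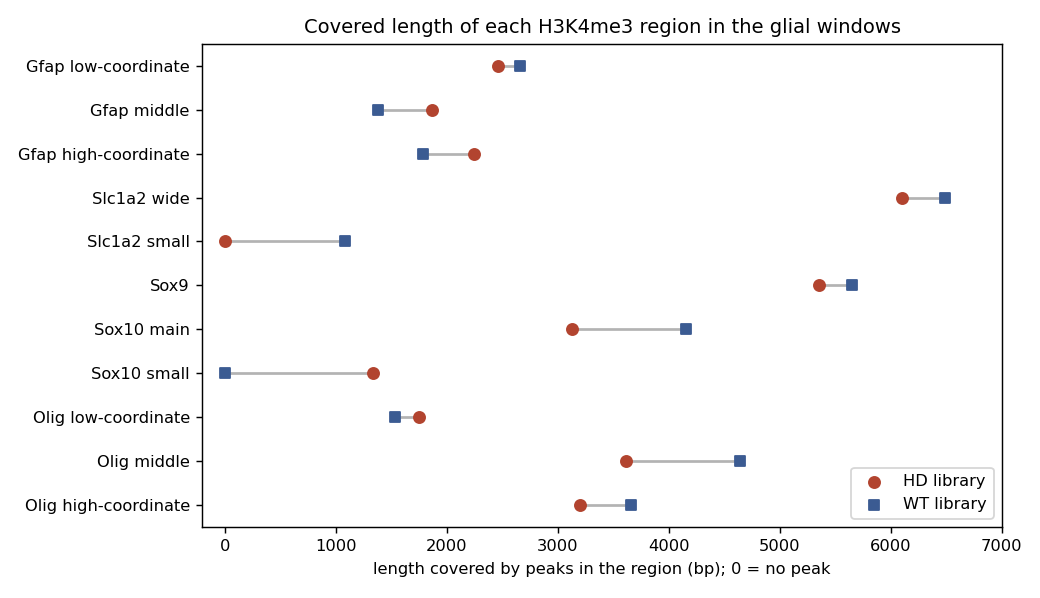
Length covered by peaks (bp) in each of the 11 regions, with HD as circles and WT as squares, a value of 0 meaning no peak. HD lies right of WT at the Gfap middle and high-coordinate regions, the Olig low-coordinate region and the small Sox10 region, which has no WT peak, and left of WT at the other 7.

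The gap between the 2 weak Gfap peaks was 696 bp in HD and 1207 bp in WT. Over the whole Gfap window, peaks covered 6579 bp in HD and 5832 bp in WT, 747 bp more in HD. That sum combines the strong peak, which was 204 bp shorter in HD, with the weak peaks, which were 493 and 458 bp longer.

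At the Olig genes the 2 wider peaks were shorter in HD and the weak low-coordinate peak was longer. The shared Olig window carried 3 peaks in each library. In the gene table Olig2 is the neighbour on the low-coordinate side of Olig1. The middle peak covered 3618 bp in HD, from 91224868 to 91228485, and 4643 bp in WT, from 91224681 to 91229323. The HD peak lay inside the WT peak, with its left edge 187 bp and its right edge 838 bp inward. Most of the 1025 bp difference thus lay on the right. A larger inward shift of the right edge was found in 1.33% of the 16873 regions with 1 peak of each library, called single-peak regions here. Shifts in bp were ranked throughout among regions of all widths, and this WT peak was wider than 94.4% of its list. The log2 ratio was -0.36, and 10.8% of shared regions had a lower one.

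The high-coordinate Olig peak covered 3200 bp in HD, from 91269340 to 91272539, and 3665 bp in WT, from 91268925 to 91272589. Here the difference lay on the left, where the HD edge was 415 bp inward, against 50 bp on the right. A larger inward shift of the left edge was found in 5.97% of single-peak regions. The log2 ratio was -0.20, and 29.5% of shared regions had a lower one.

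A weak peak on the low-coordinate side of the Olig window went the other way. It covered 1753 bp in HD, from 91222055 to 91223807, and 1539 bp in WT, from 91222292 to 91223830. The HD edge lay 237 bp outside on the left and 23 bp inside on the right, and the log2 ratio was 0.19. Joined with the middle peak, as happens in WT when peaks within 1 kb are joined, it became part of a region with a ratio of -0.39. Between this peak and the middle peak lay 1060 bp in HD and 850 bp in WT. A further 40854 bp in HD and 39601 bp in WT, free of peaks, separated the middle peak from the high-coordinate peak.

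Scores of the 3 Olig peaks, from low to high coordinate, were 162.84, 779.86 and 1105.11 in the HD list and 140.85, 434.98 and 773.93 in the WT list. The middle peak ranked above 42.7% of HD peaks and above 36.5% of WT peaks, and the high-coordinate peak above 49.2% and 47.8%. Both were therefore of middling rank in each list, although the middle peak was wider than 90.2% of HD peaks and 94.4% of WT peaks. The low-coordinate peak ranked lower, above 22.1% of HD peaks and 20.4% of WT peaks. In all, Olig peaks covered 8571 bp in HD and 9847 bp in WT.

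Sox10 differed most in position. In WT the window had a single peak of 4154 bp, from 78990732 to 78994885, with a score of 142.06. In HD it had a peak of 3128 bp, from 78992129 to 78995256, with a score of 233.1, and a second one of 1338 bp, from 78996132 to 78997469, with a score of 64.22. The first HD peak began 1397 bp inside the left WT edge and ended 371 bp outside the right one. A larger inward shift of the left edge was found in 0.29% of single-peak regions. That ranking takes in regions of all scores and widths, and this pair was weak and wide. The first HD peak scored above 27.0% of its list and was wider than 83.4% of it. The WT peak scored above 20.6% of its list and was wider than 91.6% of it.

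The centre of the Sox10 peak lay 884 bp further right in HD than in WT, and 0.314% of single-peak regions had a larger shift of the centre in either direction. Of the bases covered by either peak, 60.9% were covered by both, and 2.52% of shared regions had a smaller share. The log2 ratio of this pair was -0.41, with 7.91% of shared regions below it. Within its decile of WT score 15.4% of regions had a lower ratio, and within its decile of HD score 10.9%. The shifts of edge and centre were not ranked within deciles. In the gene table Polr2f and Pick1 are the protein-coding neighbours of Sox10.

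The second HD peak at Sox10 had no WT counterpart and lay 875 bp beyond the first HD peak. It was the 1 HD peak of the 10 in these windows without a counterpart. In the lowest decile of HD scores, to which it belongs, 56.6% of HD peaks had none. Of all HD peaks without a counterpart, 156 or 8.55% lay within 1 kb of another HD peak. With both pieces counted, peaks covered 4466 bp of the Sox10 window in HD and 4154 bp in WT. Whether HD covered less or more at Sox10 thus depended on the second, weak piece. With peaks within 1 kb joined, the HD pieces became 1 peak of 5341 bp against 4154 bp in WT, a log2 ratio of 0.36.

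**Figure D3:**
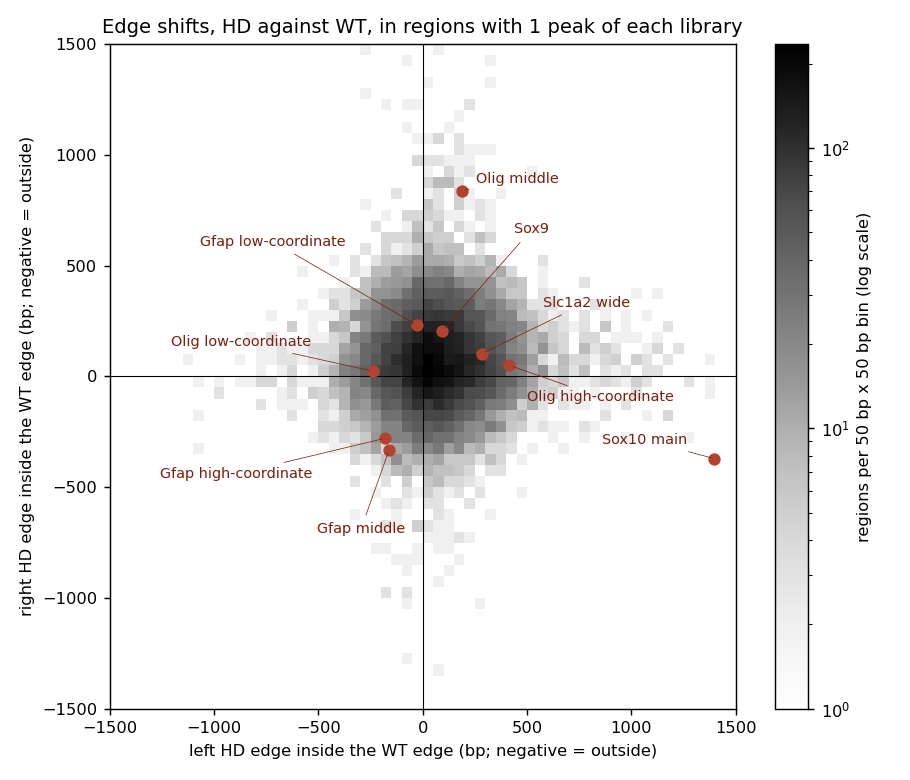
Inward shift of the left HD edge (x axis, bp) and of the right HD edge (y axis, bp) relative to WT, negative values lying outside the WT peak, with the regions of the glial windows as points over the number of all single-peak regions per bin in grey. Sox10 main lies far right at 1397 bp, Olig middle high at 838 bp, and both weak Gfap regions in the lower left quadrant. Another 103 regions of the background lie beyond the axes.

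The Csf1r window, 45 kb long, had no peak in HD and none in WT. The nearest HD peaks ended 48.4 kb below it and began 35.4 kb above it, and the nearest WT peaks lay 47.0 and 35.2 kb away. The window thus fell in a stretch of 128.8 kb without a peak in HD and of 127.2 kb in WT. The median gap between neighbouring peaks was 43.35 kb in HD and 47.3 kb in WT. Of all such gaps, 77.9% in HD and 76.0% in WT were shorter than these stretches. A gap holding an empty window of 45 kb is at least that long, as were 48.86% of HD gaps and 51.35% of WT gaps. The stretches were thus bound to rank near or above the middle of the gaps. In the gene table Pdgfrb and Hmgxb3 are the neighbours of Csf1r. A mark too weak for the authors' peak calling would not appear in these lists, so H3K4me3 at this microglial gene was not detectable here, which does not show that it was absent.

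Over the 9 shared regions, HD covered less in 6 and more in 3, where 69.0% of all shared regions were shorter in HD and 30.8% longer. The ratios ran from -0.41 at Sox10 to 0.44 at the middle Gfap peak, with a median of -0.09, against a median of -0.09 over all shared regions. Regions of a window are not replicates, and these went both ways. None of the 9 differed by more than 1.5-fold, a size reached by 2.79% of all shared regions as shorter and 0.749% as longer in HD. With peaks of a list within 1 kb joined, the 2 weak Gfap peaks became 1 region with a log2 ratio of 0.60, past that size. There the pair was joined in HD, with its gap of 696 bp, and not in WT, with its gap of 1207 bp. Joining within 1.5 kb joined the pair in both libraries and gave a ratio of 0.14. The Csf1r window has no peak and so gives no ratio.

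**Figure D4:**
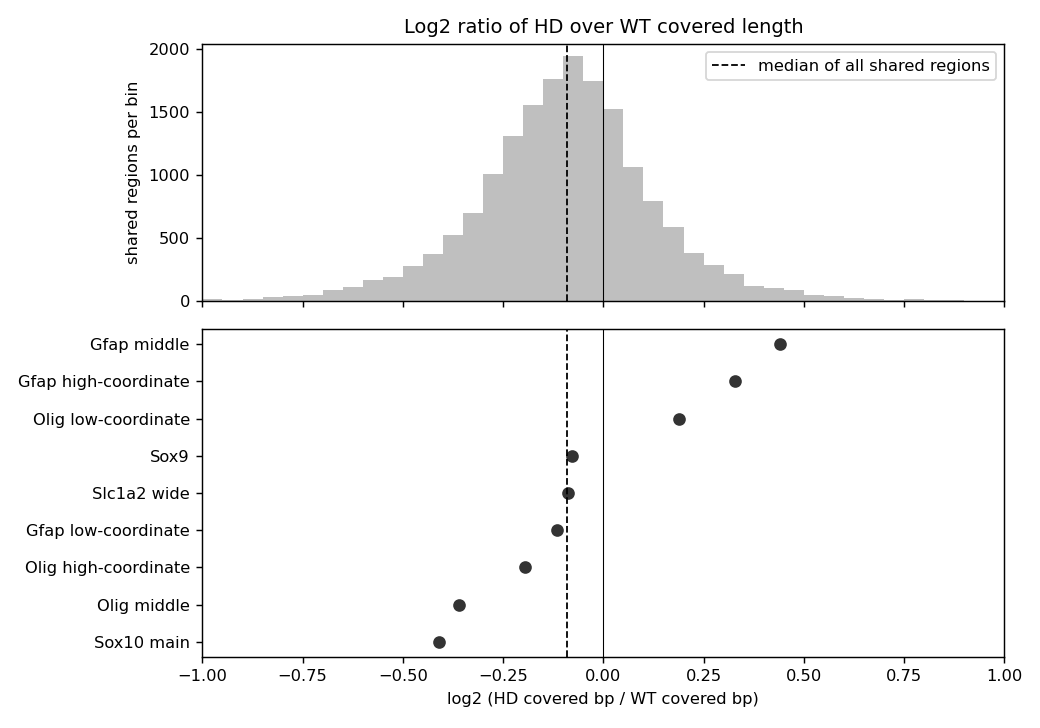
Log2 ratio of covered length, HD over WT, for all shared regions (upper panel, number per bin of 0.05) and for the 9 regions of the glial windows (lower panel, 1 point each). The dashed line is the median of all shared regions, near which Sox9 and Slc1a2 lie. Another 69 background regions lie beyond the axis.

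Each of the 9 shared regions was a single peak in both libraries, so none held more HD than WT peaks. Of all shared regions, 2.13% did. In 4 of the 9 neither HD edge reached past the WT peak, at Slc1a2, Sox9 and the middle and high-coordinate Olig peaks, and this held for 42.7% of all single-peak regions. Both lay outside in 2, the weak Gfap peaks, against a background of 13.0%. Sox10 alone had its left edge inside and its right edge outside (background 21.7%), and the strong Gfap and weak Olig peaks had the reverse (background 22.6%). The median inward shift of the left edge was 93 bp in the 9 regions and 62 bp in all single-peak regions, and that of the right edge 50 and 64 bp.

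**Figure D5:**
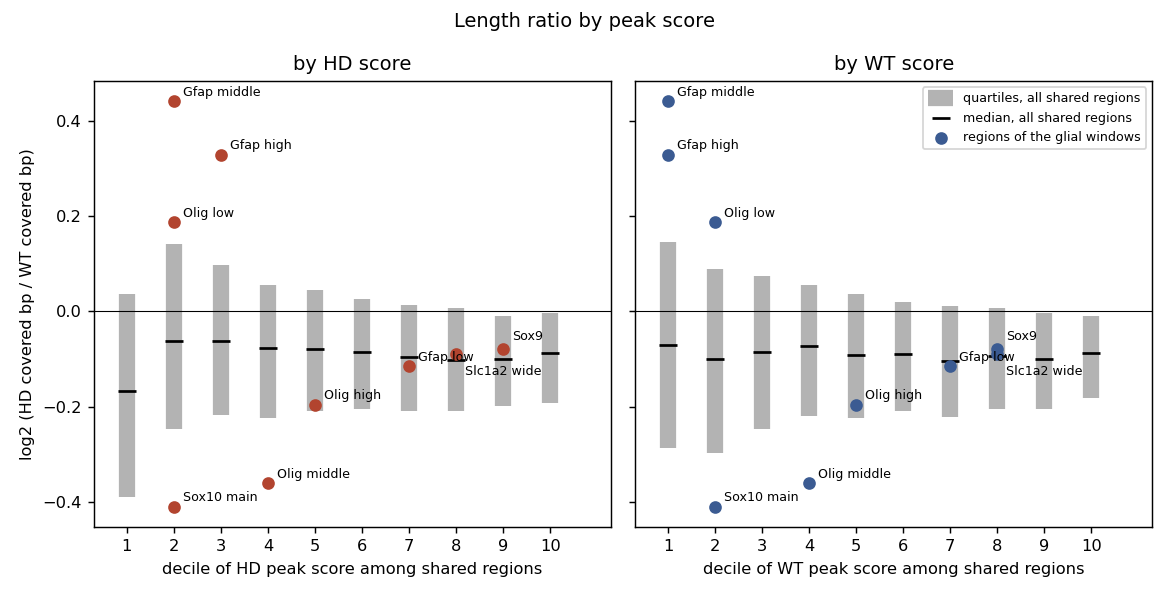
Log2 ratio of covered length, HD over WT, of the 9 regions (points), by decile of HD score (left) and of WT score (right) among all shared regions, whose medians and quartiles are the black lines and grey bars. The weak Gfap regions and the weak Olig region lie above the quartile range of their deciles, Sox10 main and Olig middle lie below it, and the strongly marked Slc1a2, Sox9 and Gfap low-coordinate regions lie within it.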

How the data were processed

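H3K4me3 was measured by chromatin immunoprecipitation and sequencing in 1 HD and 1 WT library, read as single ends of 50 bases. The authors deposited 1 peak list per library with a score per peak, and the peak names carry the name MACS. Which MACS version, settings and control were used is not given in the sources used here. BWA 0.5.9, CASAVA 1.8.2 and SAMtools are named in the submitters' processing notes, which call the mouse build both mm9 and NCBIM37. The unit of the deposited score is not named, and it was used to rank and filter peaks within a list. No file of the input library was used here.

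Peaks overlapping a window by 1 bp were taken whole, with positions counted from 1. Overlapping HD and WT peaks were joined into regions, and covered length, edges and number of peaks were compared. Each region's ratio was ranked among all shared regions. Comparisons with score deciles were chosen after the values had been seen. The code was tested on simulated lists. Python 3.11.15, numpy 2.4.6, pandas 2.3.3, scipy 1.17.1 and matplotlib 3.10.9 were used. The members, windows and lists were chosen with earlier results of these data known, and every peak in the windows is named. Peaks were not assigned to genes, because the gene table is of another build (GRCm38.p6), and the window positions were not checked against an mm9 annotation. Other glial and neuronal marker genes were not placed and are not analysed here. The alternatives were a minimum score of 100, joining peaks within 1 kb, windows widened by 10 kb, peaks cut at the window edges, equal numbers of top scoring peaks and a reciprocal overlap of 50%, with joining within 1.5 kb added later.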

Additional observations from a re-analysis of the deposited data

How the results depend on the processing

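The windows marked in each library stayed at 5 of 6 under every alternative run, the median log2 ratio over the shared regions stayed between -0.11 and -0.09, and the number of windows in which HD covered less was 3 or 4. It was 4 when peaks had to score 100 and with windows widened by 10 kb, Sox10 being the window that turned: the second HD peak drops out under the first, and a strong neighbouring peak comes in under the second. With the minimum score, HD peaks without a counterpart numbered 2, the weak Gfap peaks, because the weak WT peaks there drop out. WT peaks without a counterpart numbered 0, because the small Slc1a2 WT peak, with a score of 59.41, drops out. Joining peaks within 1 kb left 0 HD peaks without a counterpart and gave 1 region with more HD than WT peaks, at the Olig genes, where the gap is 1060 bp in HD and 850 bp in WT. It turned the log2 ratio of Sox10 to 0.36. The ratio of the low-coordinate Olig region, then 1 with the middle peak, turned to -0.39 with a left edge at -237 bp. The weak Gfap pair, joined in HD alone, came to 0.60, past 1.5-fold. Joining within 1.5 kb, added after the gaps had been seen, also left 0 HD peaks without a counterpart. It gave 0.36 at Sox10, -0.13 with the left edge at -237 bp at the joined Olig pair, and 0.14 at the Gfap pair, so the size of the Gfap and Olig differences depends on how peaks are divided. Cutting peaks at the window edges, equal list lengths and reciprocal overlap moved none of the values of the 9 shared regions. No paired analysis was possible because there is a single library of HD and of WT. Unknown depth limits what an absent weak peak, as at Csf1r, can show.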

Other observations

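Marked regions just outside the windows were few. The nearest lay on chromosome 15, 1.94 kb below the Sox10 window, where the peak covered 2199 bp in HD, from 78970606 to 78972804, and 2666 bp in WT, from 78970398 to 78973063. The log2 ratio of HD over WT was -0.28, and the HD edges lay inward by 208 bp at the left end and 259 bp at the right end. This strong peak, with scores of 2522.1 in the HD list and 1760.43 in the WT list, did not share the displacement of the Sox10 peak, since both of its edges lay inside.

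On chromosome 11, 11.6 kb above the Sox9 window, a weaker region covered 1961 bp in HD, from 112671600 to 112673560, and 1635 bp in WT, from 112671922 to 112673556. Its HD edge lay outside by 322 bp at the left end and 4 bp at the right end, and the log2 ratio was 0.26. It scored 255.59 in the HD list and 91.26 in the WT list. Another region, 15.7 kb above the Gfap window, covered 1477 bp in HD and 1598 bp in WT, a log2 ratio of -0.11. No other region lay within 20 kb of a window.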
